A study of Sus scrofa with 24 samples.

Results

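The genes followed here were C3, the central protein of the complement cascade, and 3 genes whose products start or limit its cleavage: CFD (complement factor D), CFI (complement factor I) and C4BPA (the alpha chain of C4b-binding protein). All array probes of these 4 genes were taken, by the gene name, numbered locus or accession in the array annotation. They were 4 of the 6126 gene symbols that the array's probes could be given here and 7 of its 43603 probes, 1 for C3 and 2 each for CFI, C4BPA and CFD, and all 7 passed the filter on dim probes. The samples were total RNA from veins of pigs (Sus scrofa) with an arteriovenous graft for haemodialysis, a tube that joins an artery to a vein and tends to narrow at its venous end.

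Vein was taken at day 5 and day 14 after graft placement from 3 sites: external jugular vein, which served as control, the anastomosis where graft and vein meet, and vein downstream of it. Each of the 6 groups had 4 samples, which the labels call biological replicates, so there were 24 samples on 16 arrays of 2 colours. No strain, age or other treatment of the pigs is given in the sources used here, nor whether samples of the same replicate number came from the same animal. Every jugular control was labelled with Cy3 and every anastomosis and downstream sample with Cy5, so dye and site cannot be told apart in a comparison with the control; comparisons between anastomosis and downstream vein, or between days at a site, were free of this. The samples were pieces of whole vein, in which fewer cells of a type and less RNA per cell cannot be told apart. The endothelial markers PECAM1 and VWF, the smooth muscle marker ACTA2 and the fibroblast marker DCN were well above background in 24 of 24 samples, as the labelled tissue calls for. The epithelial marker EPCAM and the skeletal muscle marker MYH1 were so in 24 of 24 too, so detection alone does not identify the tissue. Between 56.9% and 80.2% of probes were well above background per sample.

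Complement works as a chain of proteases in blood and tissue fluid. Convertases cut C3 into C3a, which attracts and activates leukocytes, and C3b, which binds to nearby surfaces and marks them for uptake. CFD, also called adipsin and secreted largely by fat cells, cuts factor B on C3b and so completes the convertase of the alternative pathway. CFI is the protease that destroys C3b and C4b, and it needs a cofactor such as CD46 or C4b-binding protein. The liver makes most circulating complement, while macrophages, fibroblasts, fat cells and vascular cells make part of it locally.

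The probes were single-stranded oligonucleotides of 60 bases, and their sequences are shown because the probes of a gene gave different answers. The C3 probe and both CFI probes are printed whole, and 30 bases of each other probe, 5′ to 3′. Capitals mark the longest run of bases that the C4BPA probes share, and a polyadenylation signal in the brighter CFD probe.
C3 A_72_P165601: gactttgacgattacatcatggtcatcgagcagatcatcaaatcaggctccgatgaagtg
CFI A_72_P251667: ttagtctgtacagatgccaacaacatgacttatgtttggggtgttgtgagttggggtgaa
CFI A_72_P241377: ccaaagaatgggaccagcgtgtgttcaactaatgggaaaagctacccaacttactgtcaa
C4BPA A_72_P088301, bases 1 to 30: tgcagctctcaatccaatgtagATCACTTG
C4BPA A_72_P237572, bases 31 to 60: ccccaaaatATCACTTGcatagaagacaga
CFD A_72_P039081, bases 31 to 60: ggcttagcAATAAAgtcatccattcctgca
CFD A_72_P187051, bases 1 to 30: tactcttggtacaaagtctaggggaagata

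The C4BPA probes shared no run longer than 8 bases. They belonged to different genes of RefSeq's Sscrofa11.1 annotation that both carry the symbol C4BPA. A_72_P088301 matched the gene with the synonym APOR (apolipoprotein R, a pig plasma protein built of the same short consensus repeats as C4b-binding protein), and A_72_P237572 matched the other, which lies between C4BPB, the beta chain, and a pseudogene. Values of the former are therefore given by probe and not read as the level of the C4BPA chain alone. The CFD probes shared no run longer than 6 bases and carried the same accession. The motif AATAAA stood in 12.1% of all 43603 probes as printed, and in 16.3% on either strand.

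Levels below are normalised log2 intensities, on which a step of 1 is a 2-fold change, and differences between groups are log2 differences ± SE from a limma fit over all 36141 probes tested. A probe was called when its p, adjusted over these probes by Benjamini-Hochberg, was under 0.05. The median difference over all probes was 0.01 in each comparison with the control, and 0.119 to 0.205 with median centring in place of loess. The brighter probes of C4BPA, CFD and CFI moved by more than that under median centring, as the values below show. Median centring does not remove dye shifts that vary with brightness, so this median does not measure the shift of a bright probe. Levels of different probes are not comparable, since probes differ in brightness. How many of all probes had groups without overlap was not counted, so a lack of overlap is given as a description only.

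C3 rose at the anastomosis by day 14. In the jugular control its level was 8.99, 7.91, 9.19 and 9.94 in replicates 1 to 4 at day 5, and 9.54, 9.26, 8.79 and 9.14 at day 14. At the anastomosis it was 9.33, 8.43, 10.01 and 8.61 at day 5; replicate 3 lay above every control and the other 3 samples within their range. At day 14 it was 12.62, 12.14, 10.54 and 12.63, and every anastomosis sample lay above every control. The difference from the control at day 14 was 2.80 ± 0.62, a 6.96-fold higher level with an adjusted p of 0.0149, and it was positive in 4 of 4 pairs of the same replicate number (1.75 to 3.49). At day 5 the difference was 0.09 ± 0.62 (95% interval -1.23 to 1.41, adjusted p = 0.951), with 3 pairs higher and 1 lower. The call at day 14 was lost without replicate 1 (2.70, adjusted p = 0.0657) or without replicate 4 (2.57, adjusted p = 0.135), and in replicates 3 and 4 alone (2.62, adjusted p = 0.0545); replicates 1 and 2 alone gave 2.98 (adjusted p = 0.0499).

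Downstream of the anastomosis C3 split by replicate at day 14. Its level there was 10.17 and 9.37 in replicates 1 and 2, against 12.59 and 12.46 in replicates 3 and 4; the latter lay within the range of the anastomosis samples of that day. The difference from the control was 1.96 ± 0.62 with an adjusted p of 0.144, positive in 4 of 4 pairs but spread from 0.11 to 3.80. The scanner software ran under different protocol versions for replicates 1 and 2 and for replicates 3 and 4. Within the former the difference was 0.37 (adjusted p = 0.673), and within the latter it was 3.56 (adjusted p = 0.0366). With median centring in place of loess, the only other setting tried that gave a call, it was 2.54 (adjusted p = 0.00875). At day 5 the downstream levels were 10.60, 9.35, 10.12 and 10.06, a difference of 1.03 ± 0.62 that did not pass (adjusted p = 0.321) although all 4 pairs were positive.

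Over the 6 groups the mean C3 level ran from 9.01 ± 0.84 (SD, n = 4) in the day 5 control, 9.10 ± 0.72 in the day 5 anastomosis and 9.18 ± 0.31 in the day 14 control to 10.03 ± 0.52 in the day 5 downstream vein, 11.15 ± 1.63 in the day 14 downstream vein and 11.98 ± 0.99 in the day 14 anastomosis. The lowest 3 differed by less than their SDs, and so did the highest 2. The step from 9.18 to 10.03 was larger than either SD, and that from 10.03 to 11.15 was larger than the SD of the former group and smaller than that of the latter. From day 5 to day 14 the anastomosis samples moved by 2.89 ± 0.52, with no overlap between the days, but over all probes, of which 0.00553% passed for that step (0.00277% in each direction), the adjusted p was 0.226 (unadjusted p = 0.000441). The authors' deposited value table gave 2.28 with an adjusted p of 0.0217 for that step. The control moved by 0.18 ± 0.39 and the downstream vein by 1.11 ± 0.74.

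**Figure D1:**
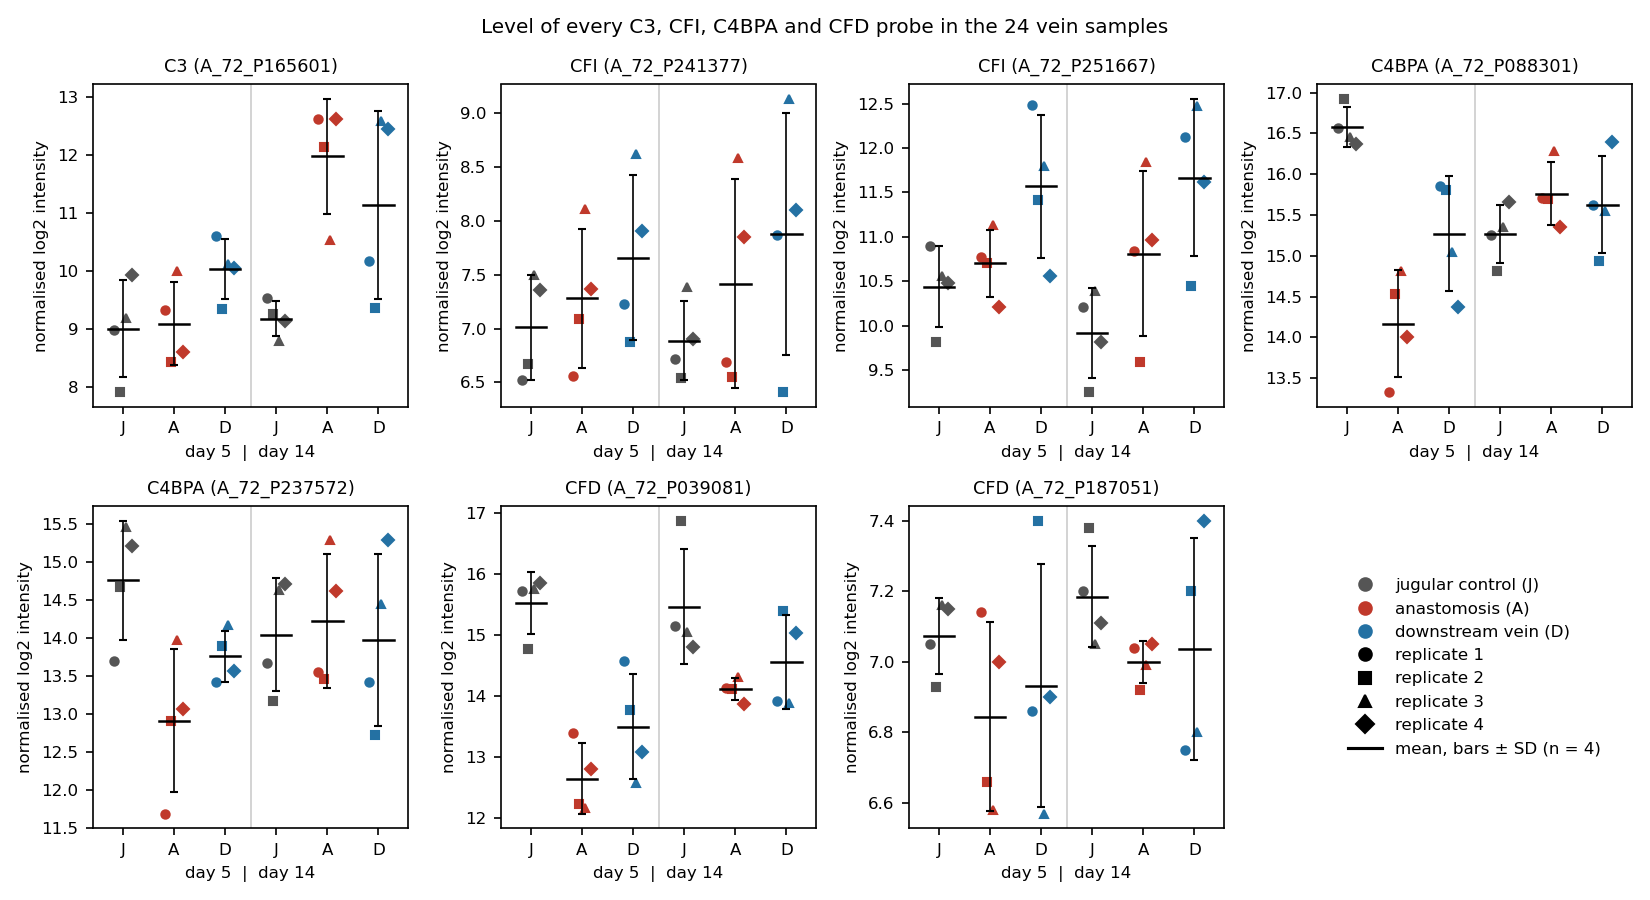
Normalised log2 intensity (vertical axis, a scale of its own in each panel) of every probe of C3, CFI, C4BPA and CFD in the jugular control (J, grey), anastomosis (A, red) and downstream vein (D, blue) at day 5 and day 14. Points are samples, their shape is the replicate number, and bars give the mean ± SD (n = 4). C3 lies at 10.54 to 12.63 in the day 14 anastomosis against 8.79 to 9.54 in its control, and CFD probe A_72_P039081 is at its lowest, 12.16 to 13.39, in the day 5 anastomosis.

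CFD, the protease that completes the alternative pathway convertase, was lower at the graft, most of all at day 5. Its brighter probe, A_72_P039081, gave 15.72, 14.78, 15.76 and 15.86 in the day 5 control and 13.39, 12.22, 12.16 and 12.81 in the day 5 anastomosis, with no overlap. The difference was -2.88 ± 0.39, a 7.38-fold lower level, with an adjusted p of 0.000576, and it was negative in all 4 pairs (-3.60 to -2.34). The call held without each replicate in turn (-3.07 to -2.65) and was lost in replicates 1 and 2 alone (-2.45, adjusted p = 0.0782). Downstream at day 5 the levels were 14.57, 13.77, 12.57 and 13.08, again below every control. That difference was -2.03 ± 0.39 (adjusted p = 0.0101); replicates 1 and 2 alone gave -1.08 (adjusted p = 0.644) and replicates 3 and 4 alone -2.98 (adjusted p = 0.0124). It was not called without replicate 3 (-1.65, adjusted p = 0.112), without replicate 4 (-1.78, adjusted p = 0.127) or with median centring (-1.11, adjusted p = 0.0528).

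At day 14 CFD was closer to the control. The anastomosis samples lay at 14.14, 14.12, 14.32 and 13.87, a narrow range below all controls of that day, which were 15.15, 16.88, 15.05 and 14.80. The difference of -1.35 ± 0.39 just passed (adjusted p = 0.0427). It passed in no fit that left out a replicate number (-1.56 to -0.89, adjusted p from 0.0619 to 0.169), nor without the control sample of replicate 2 alone (-1.02, adjusted p = 0.117), the brightest of the 24 samples. Nor did it pass without the replicate block (adjusted p = 0.163) or within either pair of replicates (-1.88, adjusted p = 0.143 in replicates 1 and 2; -0.83, adjusted p = 0.221 in replicates 3 and 4), and with median centring it was -0.40 (adjusted p = 0.44). Downstream, at 13.92, 15.39, 13.89 and 15.03, the difference of -0.91 ± 0.39 did not pass (adjusted p = 0.28). The anastomosis moved by 1.47 ± 0.27 between the days without overlap (adjusted p = 0.231, unadjusted p = 0.000511), and the control by -0.06 ± 0.47. In order of the mean, the groups ran from 12.65 in the day 5 anastomosis through 13.50 (day 5 downstream), 14.11 (day 14 anastomosis) and 14.56 (day 14 downstream) to 15.47 and 15.53 in the day 14 and day 5 controls. Neighbours in this order differed by less than the larger of their SDs.

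The other CFD probe, A_72_P187051, was not called. It stayed between 6.57 and 7.40 in all 24 samples, and its differences from the control were -0.22 ± 0.17 and -0.19 ± 0.17 at the day 5 and day 14 anastomosis and -0.14 ± 0.17 and -0.15 ± 0.17 downstream. At the day 14 anastomosis it was lower in 4 of 4 pairs (-0.46 to -0.06), with no overlap between the groups (adjusted p = 0.531 in limma). The share of all probes with such a separation was not counted, and this probe lies near background. Its group means ordered the graft sites as the brighter probe did, with 6.85 and 6.93 in the day 5 anastomosis and downstream vein, 7.0 and 7.04 at day 14, and both controls above them at 7.07 and 7.19. Over the 24 samples the CFD probes had r = 0.69, and 0.78, 0.73 and 0.61 within the control, anastomosis and downstream samples.

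CFD is a fat cell product, so the adipocyte markers were read beside it. None of the 11 measured markers passed in a comparison with the control, with medians of -0.99 (anastomosis) and -0.10 (downstream) at day 5 and 0.27 and 0.79 at day 14. Their mean level was 9.27 to 10.64 in the day 5 controls and 8.43 to 9.37 in the day 5 anastomosis. In the day 14 controls it was 8.63, 14.16, 10.03 and 8.91, so replicate 2, with the highest CFD of all samples, also had by far the highest fat cell signal of its group. The mean reached 13.72 in the day 14 anastomosis (replicate 3), where CFD was 14.32, and 13.53 in the day 14 downstream vein (replicate 2), where CFD was 15.39. Over 24 samples CFD and the adipocyte mean had r = 0.53. Within the 8 samples of a site r was 0.89 in the control, 0.66 in the anastomosis and 0.72 downstream, where both values of a point come from the same array. Such r was not particular to the adipocyte list. With the other lists r over 24 samples ran from -0.66 (monocyte and macrophage) to 0.70 (skeletal muscle). With the liver list it was 0.71, 0.75 and 0.70 within the control, anastomosis and downstream samples. The adipocyte marker PLIN1 was well above background in 12 of 24 samples and ADIPOQ in 22. In the day 5 anastomosis 3 of 6 skeletal muscle markers and 4 of 6 contractile smooth muscle markers were also lower, against 12% of all genes with a symbol. The part of fat or muscle cells in the CFD difference was not tested.

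CFI, the protease that inactivates C3b and C4b, was higher downstream of the graft on both days. Its brighter probe, A_72_P251667, gave 10.90, 9.82, 10.56 and 10.48 in the day 5 control and 12.49, 11.42, 11.80 and 10.56 downstream, where replicate 4 did not stand above the controls. The difference was 1.13 ± 0.25 (adjusted p = 0.0167), positive in all 4 pairs (0.08 to 1.60). At day 14 the controls lay at 10.21, 9.25, 10.39 and 9.82 and the downstream samples at 12.13, 10.45, 12.47 and 11.62, with no overlap. That difference was 1.75 ± 0.25, a 3.36-fold higher level with an adjusted p of 0.00715, and the 4 pairs were close together (1.2 to 2.08).

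At the anastomosis CFI was 10.77, 10.70, 11.13 and 10.21 at day 5, a difference of 0.26 ± 0.25 that did not pass (adjusted p = 0.537); with median centring it was 0.89 and passed (adjusted p = 0.0159). At day 14 it was 10.84, 9.59, 11.84 and 10.97, overlapping the controls, with a called difference of 0.89 ± 0.25 (adjusted p = 0.0379). At day 14 replicate 2 was lowest and replicate 3 highest at every site. At day 5 the ranking differed, with replicate 2 lowest in the control and replicate 4 lowest at the anastomosis and downstream. The calls rest on the replicate block: without it the day 14 difference downstream was still 1.75, but with an adjusted p of 0.277. The other calls of this probe were lost without the block too (adjusted p = 0.307 downstream at day 5 and 0.47 at the anastomosis at day 14). The day 14 downstream call was lost without replicate 3 (1.64, adjusted p = 0.104) or 4 (1.73, adjusted p = 0.0887), that at day 5 without replicate 2 (0.97, adjusted p = 0.102), 3 (1.09, adjusted p = 0.134) or 4 (1.48, adjusted p = 0.0965), and that of the anastomosis without replicate 1 (0.98, adjusted p = 0.0634), 3 (0.71, adjusted p = 0.22) or 4 (0.80, adjusted p = 0.162). Within replicates 1 and 2 the 3 differences were 1.55, 1.60 and 0.48 (adjusted p = 0.533, 0.625 and 0.575), and within replicates 3 and 4 they were 1.94, 0.66 and 1.30 (adjusted p = 0.0242, 0.164 and 0.032).

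By A_72_P251667, CFI was lower at the anastomosis than downstream in every pair, by -1.73 to -0.35 at day 5 and by -1.29 to -0.64 at day 14, between samples of the same dye. The differences were -0.87 ± 0.25 and -0.86 ± 0.25, with unadjusted p of 0.00324 and 0.00348, and they did not pass over all probes (adjusted p = 0.413 and 0.178). The dimmer probe gave -0.38 ± 0.25 and -0.46 ± 0.25, lower in 3 of 4 pairs on each day and higher in replicate 2 (adjusted p = 0.628 and 0.424). Between days A_72_P251667 moved by 0.10 ± 0.52 downstream, 0.11 ± 0.43 at the anastomosis and -0.52 ± 0.31 in the control. The mean levels ranged from 9.92 ± 0.51 (SD, n = 4) in the day 14 control to 11.67 ± 0.88 in the day 14 downstream vein, with the day 5 control at 10.44 ± 0.45, the anastomosis at 10.70 ± 0.38 (day 5) and 10.81 ± 0.92 (day 14), and the day 5 downstream vein at 11.57 ± 0.81.

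The dimmer CFI probe, A_72_P241377, lay between 6.41 and 9.13 and was well above background in 22 of 24 samples, with 2 of the 4 day 5 controls below. It ordered the groups almost alike, with 7.01 and 6.89 in the day 5 and day 14 controls, 7.28 and 7.42 at the anastomosis and 7.66 and 7.87 downstream. Its differences downstream were 0.65 ± 0.25 (adjusted p = 0.119) at day 5 and 0.99 ± 0.25 (adjusted p = 0.0812) at day 14, and 0.27 ± 0.25 and 0.53 ± 0.25 at the anastomosis. None passed over all replicates. Within replicates 3 and 4 the downstream ones (0.84 and 1.47, adjusted p = 0.044 and 0.0234) and that of the day 14 anastomosis (1.07, adjusted p = 0.023) did. Without the day 14 control of replicate 2 those of day 14 also passed (1.26, adjusted p = 0.0202 downstream and 0.81, adjusted p = 0.0455 at the anastomosis), and the downstream one passed without replicate 2 (1.36, adjusted p = 0.0257) and with median centring (1.1, adjusted p = 0.0174). Downstream at day 5 the probe passed with the processed signals of the scanner files (1.65, adjusted p = 0.0383) and in the authors' deposited value table (1.60, adjusted p = 0.0128). The CFI probes had r = 0.67 over the 24 samples. The endothelial markers CDH5 and KDR rose beside CFI at day 5 downstream (2 of 5 measured) and KDR at day 14 (1 of 5). The counts at the anastomosis were the same. Of all genes with a symbol, 5.72% and 1.05% were higher downstream at days 5 and 14, and 18.3% and 6.79% at the anastomosis. The mean endothelial level was 11.72 to 12.03 in the day 5 controls and 12.56 to 12.79 downstream. The part of endothelium in the CFI difference was not tested.

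Both probes under the symbol C4BPA, that of a cofactor chain for CFI and that of the gene also called APOR, were lower at both graft sites at day 5 and not called at day 14. Probe A_72_P088301, of the gene also called APOR, gave 16.57, 16.92, 16.46 and 16.37 in the day 5 control and 13.33, 14.53, 14.82 and 14.00 in the day 5 anastomosis. The groups did not overlap, and the difference was -2.41 ± 0.32, a 5.32-fold lower level with an adjusted p of 0.000578. Downstream the levels were 15.85, 15.81, 15.05 and 14.37, also below every control, with a difference of -1.31 ± 0.32 (adjusted p = 0.0265).

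Probe A_72_P237572, of the other C4BPA gene had lower levels at both sites in every day 5 pair. It gave 13.70, 14.67, 15.47 and 15.22 in the day 5 control, 11.69, 12.91, 13.98 and 13.07 at the anastomosis and 13.42, 13.90, 14.17 and 13.57 downstream. The groups overlapped, and replicate 1 was the lowest at each site. The pairs ran from -2.16 to -1.50 at the anastomosis, with a difference of -1.86 ± 0.25 (adjusted p = 0.000593), and more widely from -1.65 to -0.28 downstream, with -1.0 ± 0.25 (adjusted p = 0.0282). The anastomosis calls of both probes held without each replicate in turn (-2.67 to -2.14 and -1.98 to -1.76) and under median centring, where they were smaller (-1.21, adjusted p = 0.009, and -0.86, adjusted p = 0.015).

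The downstream calls of C4BPA were less firm. Without the replicate block their adjusted p was 0.0721 and 0.548. With median centring they were -0.24 (adjusted p = 0.612) and -0.11 (adjusted p = 0.762). For A_72_P088301 the call was lost without replicate 2 (-1.38, adjusted p = 0.117), 3 (-1.28, adjusted p = 0.14) or 4 (-1.08, adjusted p = 0.166), and for A_72_P237572 likewise (-1.08, -0.90 and -0.78, adjusted p = 0.111, 0.165 and 0.176). Within replicates 1 and 2 the anastomosis differences were -2.81 and -1.89 (adjusted p = 0.0639 and 0.0691) and the downstream ones -0.92 and -0.52 (adjusted p = 0.638 and 0.669). Within replicates 3 and 4 they were -2.01 and -1.83 (adjusted p = 0.0289 and 0.0239) and -1.70 and -1.48 (adjusted p = 0.0494 and 0.0457).

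By day 14 the control itself had a lower level of A_72_P088301. Its samples were 15.25, 14.81, 15.35 and 15.66, each below every day 5 control. The step was -1.31 ± 0.21 (95% interval -1.79 to -0.84) with an unadjusted p of 0.000203 and an adjusted p of 1.0. By limma 0 of 36141 probes passed between the control's days. An unadjusted p under 0.05 was held by 678, a smaller share than the 0.05 that chance alone would give. The probes were chosen with earlier results of these data known, so the unadjusted p of this step is a description. The step was -1.51 to -1.05 without each replicate in turn, -1.72 in replicates 1 and 2 alone and -0.91 in replicates 3 and 4 alone. The anastomosis moved the other way, to 15.71, 15.70, 16.29 and 15.35, by 1.60 ± 0.33 and again with no overlap between days (adjusted p = 0.268, unadjusted p = 0.00115). The downstream vein, at 15.62, 14.94, 15.55 and 16.39, moved by 0.35 ± 0.41.

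Against the day 14 control the differences of A_72_P088301 were therefore small and positive, 0.50 ± 0.32 at the anastomosis (3 of 4 pairs higher) and 0.36 ± 0.32 downstream (4 of 4 higher), with adjusted p of 0.372 and 0.655. With median centring they were 1.53 (adjusted p = 0.00229) and 1.33 (adjusted p = 0.00916). The difference at the anastomosis had changed by 2.91 ± 0.46 from day 5 to day 14. The fall of the control (-1.31) and the rise of the anastomosis (1.60) both added to this change. Its unadjusted p was 1.59e-05 and its adjusted p 0.337, since no probe of the array passed for that change; the authors' deposited value table gave 2.79 with an adjusted p of 0.0116.

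A_72_P237572 moved in the same directions and by less. Its day 14 levels were 13.67, 13.18, 14.63 and 14.71 in the control, 13.55, 13.46, 15.29 and 14.62 at the anastomosis and 13.42, 12.73, 14.45 and 15.30 downstream. The control step was -0.72 ± 0.47, with overlap between the days (adjusted p = 1.0), the anastomosis step was 1.32 ± 0.55 (adjusted p = 0.538), and the differences from the day 14 control were 0.19 ± 0.25 and -0.07 ± 0.25 (with median centring 1.1, adjusted p = 0.00374, and 0.77, adjusted p = 0.0325). The change between days of the anastomosis difference was 2.04 ± 0.35 (unadjusted p = 4.46e-05, adjusted p = 0.337). The mean of this probe was highest in the day 5 control (14.77 ± 0.78) and lowest in the day 5 anastomosis (12.91 ± 0.94), with the other 4 groups between 13.77 and 14.23 and not separable by their SDs. The mean of A_72_P088301 was likewise highest in the day 5 control (16.58 ± 0.24) and lowest in the day 5 anastomosis (14.17 ± 0.65), with the other groups between 15.27 and 15.77. Over the 24 samples the C4BPA probes had r = 0.75.

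Contractile smooth muscle genes were lower beside C4BPA at day 5: 4 of 6 measured at the anastomosis and 2 of 6 downstream. Of all genes with a symbol, 12% and 6.23% were lower in these comparisons. The list's mean level was 15.11 to 15.75 in the day 5 control, 12.95 to 14.27 at the anastomosis and 12.76 to 14.52 downstream. In the day 14 anastomosis, where C4BPA was not called, that list's mean lay at 12.97 to 13.71. The day 14 controls lay at 14.89, 12.42, 15.75 and 15.58 in replicates 1 to 4, so only replicate 2 lay below the anastomosis samples. Liver is the main source of circulating C4b-binding protein; of the 8 liver markers on the array, APOA1 and HP were well above background in 24 of 24 samples, FGB in 23, ALB in 19, SERPINA1 in 17, TTR in 2, and FGA and FGG in 0. Their levels lay between 5.78 and 7.66, save HP at 7.19 to 9.77 and APOA1 at 12.73 to 15.68. The part of smooth muscle in the C4BPA difference was not tested.

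**Figure D2:**
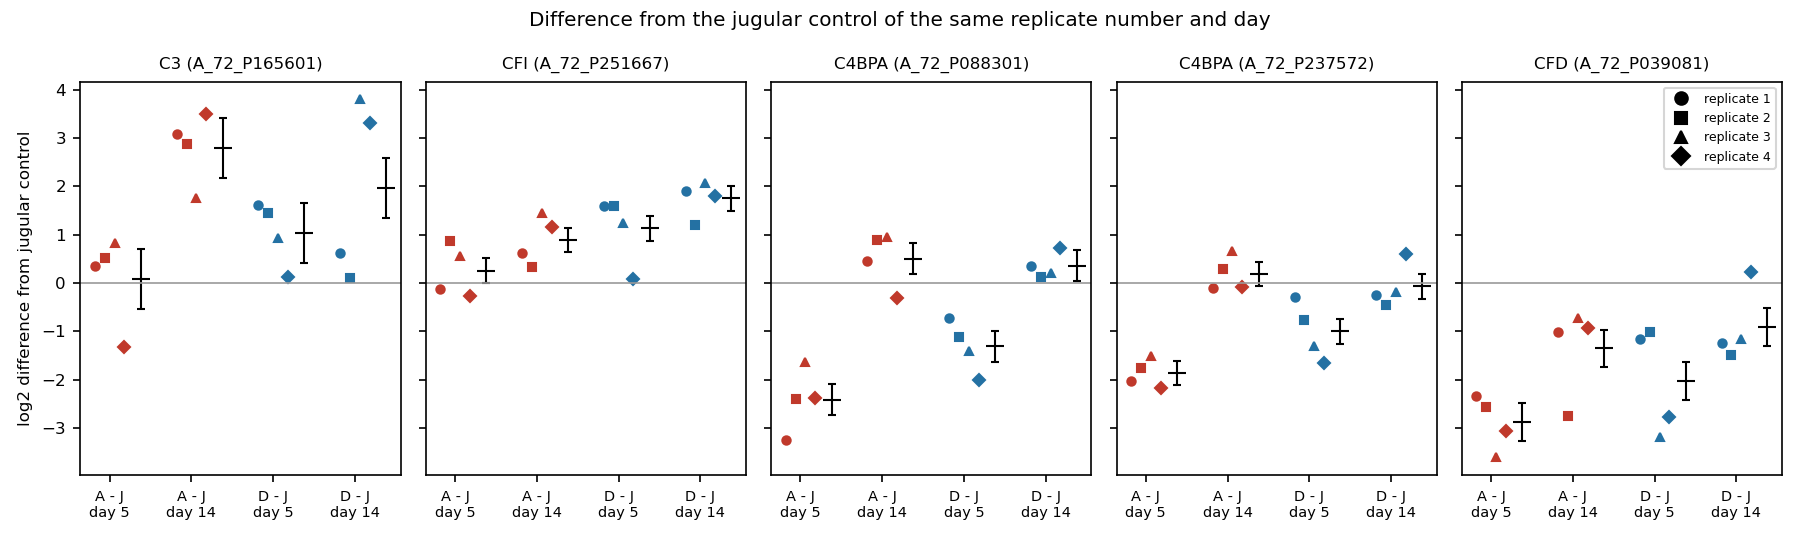
Log2 difference from the jugular control of the same replicate number and day (vertical axis) for the anastomosis (A - J, red) and downstream vein (D - J, blue). Each point is a pair, its shape the replicate number, and the black mark beside the points is the fitted difference ± SE. Both C4BPA probes lie below 0 in all 8 pairs of day 5 and around 0 at day 14, while C3 is spread from 0.11 to 3.80 in the day 14 downstream vein.

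Counted over the 7 probes, 3 were lower at the day 5 anastomosis, when 20% of all probes tested were called, 10.3% lower and 9.75% higher. At the day 14 anastomosis, where 8.84% were called, 2 were higher (C3 and the brighter CFI probe, against 4.75% of all probes) and 1 was lower (CFD, against 4.09%). Downstream at day 5, where 8.37% were called, 1 was higher (CFI, against 3.40%) and 3 were lower (both C4BPA probes and CFD, against 4.98%). Downstream at day 14, where 0.905% were called (0.268% lower), 1 was higher (CFI, against 0.636%). With median centring the calls over all probes shifted upward, from 3525 higher and 3707 lower to 10110 and 2257 at the day 5 anastomosis, and from 1716 and 1479 to 11249 and 3578 at day 14; downstream they went from 1227 and 1799 to 8030 and 1522 at day 5, and from 230 and 97 to 8554 and 2326 at day 14. Anastomosis and downstream vein did not differ in any of the 7 by limma's adjusted p; at an unadjusted p under 0.05 there were 4 probes at day 5 and 1 at day 14, and no probe of the array passed (0%) while 3677 and 5125 of 36141 were under that unadjusted p. All 4 probes of day 5, both of C4BPA, the brighter of CFI and the brighter of CFD, were lower at the anastomosis than downstream.

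The other complement genes came from a list of 53, of which 39 had a probe named here and 36 were tested, the 4 genes above included; C4BPA stands in it by A_72_P088301, of the gene also called APOR. The list's counts and medians, by the brightest probe of each gene, were 3 higher and 2 lower with a median of 0.02 at the day 5 anastomosis, and 7 higher and 1 lower with 0.51 at the day 14 anastomosis. Downstream they were 5 higher and 2 lower with 0.23 at day 5, and 1 higher and 0 lower with 0.35 at day 14. Among all 5790 genes with a symbol, read the same way, 30.3% were called at the day 5 anastomosis (18.3% higher, 12% lower) and 11.7% at day 14 (6.79% and 4.89%). Downstream 12% were called at day 5 (5.72% higher, 6.23% lower) and 1.40% at day 14 (1.05% and 0.345%). Without replicate 4 the list had 0 higher genes in all 4 comparisons, with 2 lower at the day 5 anastomosis. Without the replicate 2 control of day 14 there were 7 higher and 0 lower at the day 14 anastomosis and 4 higher downstream. Median centring gave 13, 20, 15 and 16 higher genes in the order above.

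Of the early components that lead to the C3 convertase of the classical pathway, C2, C1S and C1QB passed. C2, the protease part of that convertase, was 1.42 ± 0.33 higher at the day 14 anastomosis (adjusted p = 0.0181). C1S, the protease that cuts C2 and C4, was 0.96 ± 0.28 higher there (adjusted p = 0.0454) and 1.01 ± 0.28 higher downstream at day 5 (adjusted p = 0.0389). C1QB, a chain of the recognition molecule, was 0.37 ± 0.10 higher at the day 14 anastomosis (adjusted p = 0.0434), at levels of 6.59 to 7.82, close to the floor of the array. The brighter probes of the other chains, C1QA and C1QC, gave 0.90 ± 0.35 (adjusted p = 0.119) and 1.07 ± 0.33 (adjusted p = 0.0557) there, and C1R, the protease that activates C1S, gave 0.68 ± 0.32 (adjusted p = 0.208). C4A, the other part of the classical convertase, did not pass in any of these comparisons, with values from -0.07 ± 0.47 to 1.37 ± 0.47.

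CFB, the substrate of CFD, was not called at either site. Its differences were -0.77 ± 0.73 and -0.76 ± 0.73 at the anastomosis and 0.93 ± 0.73 and 0.87 ± 0.73 downstream, and its day 14 controls alone ranged from 7.60 to 12.58. CD46, a membrane cofactor of CFI, gave -1.03 ± 0.39 at the day 5 anastomosis (adjusted p = 0.0797). CD55, which speeds the decay of convertases, gave -0.01 ± 0.34 there and 0.78 ± 0.34 downstream at day 14 (adjusted p = 0.295). C4BPB, the partner chain of C4BPA, was 0.03 ± 0.34 and -0.58 ± 0.34 at the anastomosis and 0.00 ± 0.34 and -0.18 ± 0.34 downstream. Its day 5 levels of 6.49 to 7.21 were close to the floor of the array, so its values say little about a fall.

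Receptors and late components were higher where they passed. VSIG4, a macrophage receptor for C3b, was 1.56 ± 0.26 higher at the day 14 anastomosis (adjusted p = 0.00447) and 0.89 ± 0.26 higher downstream at day 5 (adjusted p = 0.0485). CD93, an endothelial and myeloid membrane protein, was 0.72 ± 0.22 and 0.80 ± 0.22 higher at the day 5 and day 14 anastomosis. CLU (clusterin), which blocks assembly of the membrane attack complex, was 2.25 ± 0.49 higher at the day 5 anastomosis (adjusted p = 0.0054) and 1.87 ± 0.49 downstream (adjusted p = 0.0322). C6, a part of that complex, was 0.79 ± 0.19 and 1.2 ± 0.19 higher in these groups (adjusted p = 0.00966 and 0.00512), at levels of 6.22 to 7.99, close to the floor of the array. CFP, C3AR1, CR1 and ITGAM had no probe named here and were not analysed.

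**Figure D3:**
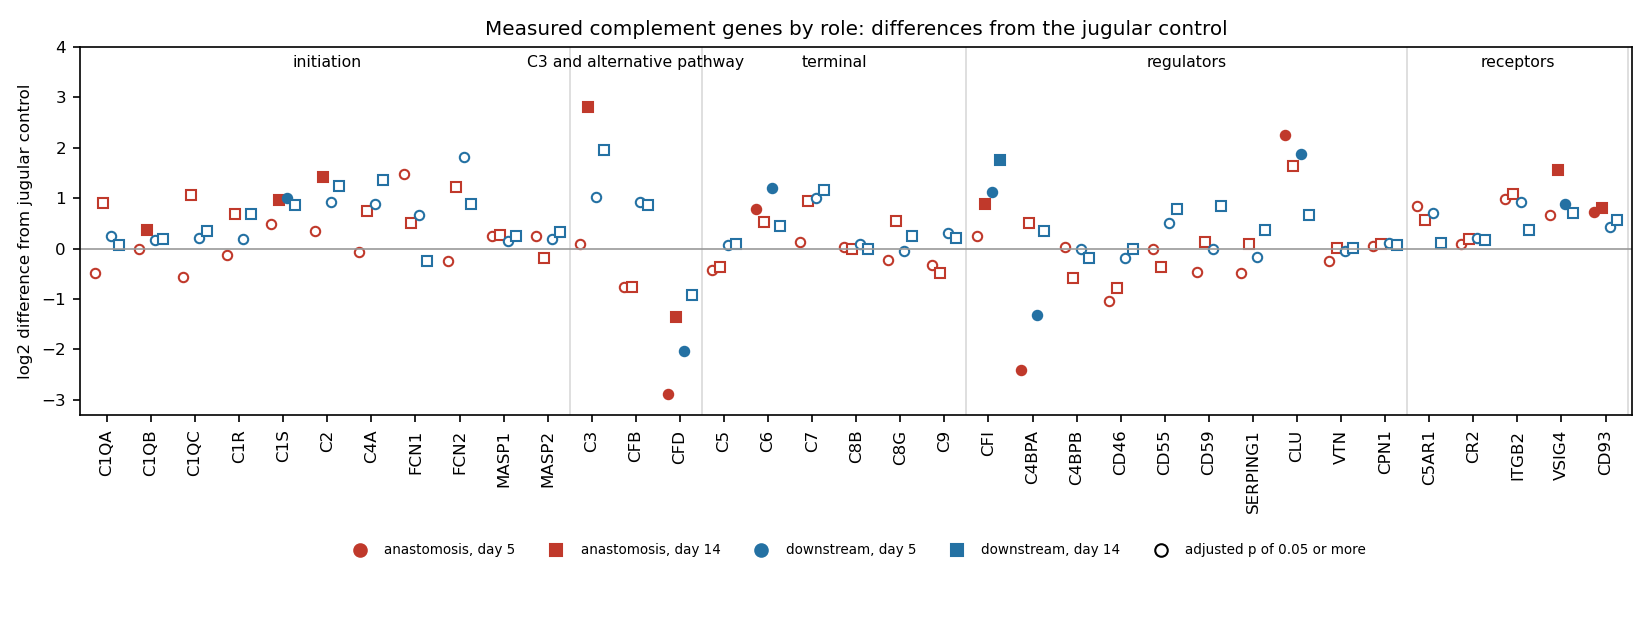
Log2 difference from the jugular control (vertical axis) of the complement genes tested, by the brightest probe of each and with 1 gene not drawn, grouped by role. Red is the anastomosis and blue the downstream vein, circles are day 5 and squares day 14, and filled marks have an adjusted p under 0.05. CFD and C4BPA (here A_72_P088301, of the gene also called APOR) hold all filled marks below 0, and C3 at the day 14 anastomosis has the highest mark of the plot (2.80).

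Monocyte and macrophage markers rose beside C3: 2 of 8 measured at the day 14 anastomosis, where 6.79% of all genes with a symbol were higher. The markers' mean level at day 14 was 11.38 to 11.49 in the control and 12.26 to 13.72 at the anastomosis. Already at day 5, when C3 did not pass, 4 of 8 were higher there, against 18.3% of genes with a symbol. Of the lymph node and B cell list 1 of 5 rose at the day 14 anastomosis, the lymphoid chemokine CCL21 (3.13 ± 0.70, adjusted p = 0.0162); that list's mean was 6.51 to 7.42 in the day 14 control and 7.45 to 8.28 at the anastomosis, and its B cell markers CD79A and CR2 were well above background in 15 and 9 of 24 samples. C3 had r = 0.59 with the macrophage mean and 0.80 with the lymph node mean over the 24 samples. Within the control, anastomosis and downstream samples r was 0.94, 0.49 and 0.41 with the macrophage mean. With the lymph node mean it was 0.48, 0.96 and 0.43. The samples of a site are of both days, so these values take in any shared step between days. The part of these cells in the C3 difference was not tested. None of 5 fibroblast and 2 mesothelial or epithelial markers measured passed in a comparison with the control (medians of -0.39 to -0.06 and of -0.45 to 0.09).

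The genes most like each member were taken by Pearson correlation of levels over the 24 samples, among 5530 genes well above background in at least 12 samples. The values share arrays and dye by pair, so r is a description. For C3 they were SLA-DRA and SLA-DQA1, chains of pig MHC class II molecules that present antigen, at r = 0.84 each, and DOCK4, an activator of small GTPases, at 0.79. Within the anastomosis samples r of C3 with SLA-DRA was 0.91 and downstream 0.87, but 0.22 within the controls. The samples of a site are of both days, so r within a site takes in any shared step between days. From day 5 to day 14 C3 and SLA-DRA moved by 2.89 ± 0.52 and 1.29 ± 0.25 at the anastomosis. In the control they moved by 0.18 ± 0.39 and -0.08 ± 0.28. SLA-DRA rose by 1.2 ± 0.31 at the day 14 anastomosis (adjusted p = 0.0274) and SLA-DQA1 by 1.26 ± 0.30 (adjusted p = 0.0208), and DOCK4 rose at both sites on day 14 (1.17 ± 0.15 and 0.98 ± 0.15, adjusted p = 0.00133 and 0.0113).

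For CFD (A_72_P039081) the genes most like it were EFHD1, a mitochondrial calcium-binding protein, at r = 0.91, and NFAT5, a transcription factor of the osmotic stress response, at 0.88. Both fell at the day 5 anastomosis, with differences of -3.41 and -0.88 (adjusted p = 0.000593 and 0.0016). For CFI (A_72_P251667) they were ELF1, an ETS transcription factor (0.72), SFRP4, a secreted Wnt antagonist (0.71), and TPBG, a membrane glycoprotein (0.71). SFRP4 rose at the day 14 anastomosis (1.52 ± 0.41, adjusted p = 0.0362) and TPBG downstream at day 5 (1.14 ± 0.33, adjusted p = 0.0467). ELF1 was not called in any comparison with the control. Its r with CFI was 0.84 within the anastomosis and downstream samples and 0.21 within the controls. For SFRP4 r was 0.83 within the control, -0.03 within the anastomosis and 0.76 within the downstream samples. For TPBG it was 0.75, 0.40 and 0.58 in that order. For C4BPA (A_72_P088301) they were ANGPTL1, a secreted angiopoietin-like protein (0.78), KCTD9 (0.77) and NTRK2, a neurotrophin receptor (0.76). These fell at the day 5 anastomosis, with differences of -3.23, -1.29 and -4.71 (adjusted p = 0.000641, 0.000348 and 0.000535), and none was called at the day 14 anastomosis.

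**Figure D4:**
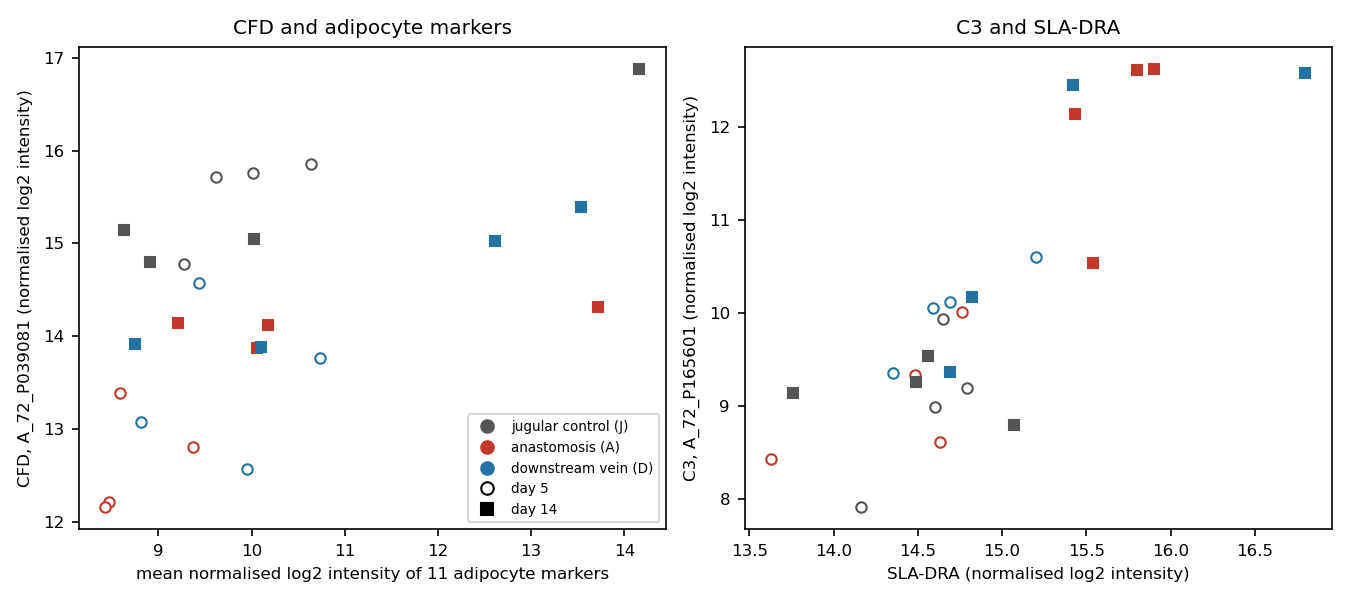
Left, CFD probe A_72_P039081 (vertical axis) against the mean of 11 adipocyte markers (horizontal axis); right, C3 (vertical axis) against SLA-DRA (horizontal axis), all as normalised log2 intensities in the 24 samples. Grey is the jugular control, red the anastomosis and blue the downstream vein, open circles are day 5 and filled squares day 14. At an adipocyte mean near 9 the controls have higher CFD than the day 5 anastomosis samples, and the 5 samples with C3 above 12 all have SLA-DRA above 15.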

How the data were processed

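Per the labels' protocols, a Qiagen RNeasy Micro kit gave the total RNA and Agilent's Quick Amp kit the 2-colour labelling. Per the file headers, version 10.5.1.1 of Agilent Feature Extraction wrote the deposited scanner files, which hold mean and background intensity values per spot. The authors also deposited a table of log2 values whose processing the sources used here do not give; its columns had medians of 7.34 to 7.42 and correlated with the scanner files at 0.922 to 0.959, and it served as an alternative.

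Intensities were corrected with normexp (offset 50), normalised by loess within and Aquantile between arrays, and read per channel as log2 values (limma 3.58.1, R 4.3.3). Each probe was kept apart. Probes well above background in at least 4 of 24 samples were tested (36141). Sites were compared in 1 fit of all 24 samples with lmFit and eBayes, with samples of the same replicate number and day as a block (8 blocks, 12 residual degrees of freedom), and days within a site in its 8 samples without a block; there were 12 comparisons. P-values (2-sided) were adjusted by Benjamini-Hochberg. The pairing comes from the shared arrays and numbers: deviations from group means correlated in 24 of 24 pairs of a number and day (0.175 to 0.812). They also correlated above 0.1 in 11 of 12 pairs of a number and site across days (0.074 to 0.627). The main fits between days do not allow for this. Between sites the p-values measure the spread of site differences within blocks, pooled over all groups. Between days they measure the spread between replicates of a site. Fits were tested on simulated data.

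Of the probes, 9054 (20.8%) had a gene symbol. For a gene of several probes the brightest led (for C4BPA that of the gene also called APOR). Named were all probes of the 4 genes, complement genes past the threshold between sites (up to 4 per comparison with values) and direct partners, and the 3 genes most like each; some genes that this rule or the marker lists take in are not reported here. Marker lists were of adipocyte, macrophage, neutrophil, liver, fibroblast, smooth muscle, endothelium, lymph node, skeletal muscle and mesothelium genes. The members and lists were chosen with earlier results of these data known. Alternatives were other background correction, normalisation, filters, blocks, samples and the deposited table.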

Additional observations from a re-analysis of the deposited data

Results flagged for a closer look

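In 42 groups of 4 samples (7 probes in 6 groups), the lowest or highest sample stood far from the others in 2. That share is near the 5% or so of groups that chance alone gives. The 2 groups are therefore described only. Both groups were CFD (A_72_P039081) in the jugular control, and in both the sample was replicate 2. At day 5 its level of 14.78 lay below the other controls, with a gap of 0.873 of the group's range, and at day 14 its level of 16.88 lay above them, with a gap of 0.831 of the range, just past the 95% critical value of Dixon's test. The adipocyte mean of these samples was 9.27, the lowest of its group, and 14.16, the highest.

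For the C4BPA probe A_72_P088301 the difference between downstream vein and control was negative in all 4 pairs at day 5 and positive in all 4 at day 14. The test of that change gave 1.67 ± 0.46 with an adjusted p of 0.65 in limma (unadjusted p = 0.00256).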

How the results depend on the processing

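The calls at the day 5 anastomosis (both C4BPA probes and CFD) held under each alternative normalisation, background, filter, block and left-out replicate; they were lost in replicates 1 and 2 alone (C4BPA A_72_P088301 -2.81, adjusted p = 0.0639; A_72_P237572 -1.89, adjusted p = 0.0691; CFD -2.45, adjusted p = 0.0782). CFD and C4BPA below are A_72_P039081 and A_72_P088301 and CFI is A_72_P251667, unless a probe is named.

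Without the replicate block these calls were lost: CFI at the day 14 anastomosis (0.89, adjusted p = 0.47) and downstream at day 5 (1.13, adjusted p = 0.307) and day 14 (1.75, adjusted p = 0.277), C4BPA and A_72_P237572 downstream at day 5 (-1.31, adjusted p = 0.0721; -1.0, adjusted p = 0.548) and CFD at the day 14 anastomosis (-1.35, adjusted p = 0.163). A replicate block in the comparisons between days changed no call. With only the samples compared in the fit, the day 14 anastomosis calls of C3 (2.80, adjusted p = 0.0661), CFI (0.89, adjusted p = 0.137) and CFD (-1.35, adjusted p = 0.17) and both downstream calls of CFI (1.13, adjusted p = 0.0532; 1.75, adjusted p = 0.218) were lost, and the day change of C4BPA at the anastomosis was gained (2.91, adjusted p = 0.0357; A_72_P237572 2.04, adjusted p = 0.0244). Without a filter on dim probes CFD at the day 14 anastomosis missed (-1.35, adjusted p = 0.0508).

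With median centring, gained were C3 downstream at day 14 (2.54), CFI at the day 5 anastomosis (0.89) and C4BPA at day 14 at both sites (1.53 and 1.33), A_72_P237572 at the day 14 anastomosis (1.1) and CFI A_72_P241377 downstream at day 14 (1.1); lost were C4BPA (-0.24), A_72_P237572 (-0.11) and CFD (-1.11) downstream at day 5 and CFD at the day 14 anastomosis (-0.40). The sign of C4BPA A_72_P237572 downstream at day 14 turned (0.77, and 0.03 with single-channel quantiles). The authors' deposited value table gained the steps between days at the anastomosis of C3 (2.28), C4BPA (1.54), A_72_P237572 (1.11) and CFD (1.33), the day changes of C4BPA (2.79) and A_72_P237572 (1.88), CFI A_72_P241377 downstream at day 5 (1.60; 1.65 with processed signals) and CFD downstream at day 14 (-1.63, adjusted p = 0.0333). It turned the sign of C4BPA downstream at day 14 (-0.05), of the downstream steps of C4BPA (-0.01) and A_72_P237572 (-0.25), and of the control step of CFD (0.04).

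In replicates 1 and 2 alone the calls of CFI (0.48 at the day 14 anastomosis, 1.60 and 1.55 downstream at days 5 and 14), of C4BPA and A_72_P237572 downstream at day 5 (-0.92 and -0.52) and of CFD at the day 14 anastomosis (-1.88) and downstream at day 5 (-1.08) were lost. Signs turned for the downstream day changes of C3 (-1.16), CFI (-0.04) and CFD (-0.27), the downstream steps of C3 (-0.21), CFI (-0.67), C4BPA (-0.55) and A_72_P237572 (-0.59), the anastomosis step of CFI (-0.52), the control step of CFD (0.76), CFI A_72_P241377 at the day 14 anastomosis (-0.01) and CFD A_72_P187051 downstream at day 5 (0.14). In replicates 3 and 4 alone C3 (2.62) and CFD (-0.83) at the day 14 anastomosis and CFI downstream at day 5 (0.66) were lost and C3 downstream at day 14 (3.56) and CFI A_72_P241377 at the day 14 anastomosis (1.07) and downstream at days 5 and 14 (0.84 and 1.47) were gained. Signs turned for C3 at the day 5 anastomosis (-0.26), C3 between graft sites at day 14 (-0.94), the control step of C3 (-0.60), C4BPA between graft sites at day 14 (-0.15), A_72_P237572 (0.21) and CFD A_72_P187051 (0.02) downstream at day 14.

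Without each replicate in turn, called values ranged from 2.57 to 3.15 for C3 at the day 14 anastomosis, for CFI from 0.71 to 1.07 there and from 0.97 to 1.48 and 1.64 to 1.93 downstream at days 5 and 14, from -1.51 to -1.08 and -1.24 to -0.78 for C4BPA and A_72_P237572 downstream at day 5, and for CFD from -1.56 to -0.89 at the day 14 anastomosis and -2.37 to -1.65 downstream at day 5. Uncalled values that crossed 0 ranged from -0.15 to 0.56 (C3, day 5 anastomosis), -0.22 to 0.50 (C3, control step), -0.11 to 0.51 and -0.22 to 0.45 (CFI, anastomosis and downstream steps), -0.07 to 0.53 (C4BPA between graft sites, day 14), -0.20 to 0.76 and -0.30 to 0.67 (downstream steps of C4BPA and A_72_P237572), -0.29 to 0.06 (A_72_P237572 downstream, day 14), -0.78 to 0.27 (CFD, control step) and -0.34 to 0.01 (CFD A_72_P187051 downstream, day 5). An alternative chosen after seeing the data, without the replicate 2 control of day 14, lost CFD at the day 14 anastomosis (-1.02) and gained CFI A_72_P241377 there (0.81) and downstream (1.26).

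Over all probes the calls (anastomosis day 5 and 14, then downstream) were 7232, 3195, 3026 and 327. They were 2595, 597, 360 and 14 when no replicate block was used, 10433, 62, 3693 and 0 when each comparison was fitted on its own samples, and 9543, 4071, 7292 and 622 in the deposited value table. The 4 samples a group limit the precision, and CFI A_72_P241377 and CFD A_72_P187051 lie near background.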

Other observations

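The green channel of the 8 arrays that carried the downstream samples has no sample in the labels. Its values of the 7 probes, set against the jugular control of the same number and day, differed by -0.52 to 0.51 over 56 values, with a median absolute difference of 0.09. The sources used here do not say what was hybridised there, and these values entered no comparison as a sample. They did enter the normalisation of the downstream samples, which lay on the same arrays.

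The neutrophil receptor CXCR2, the 1 measured member of its list, was lower than the control at the day 14 anastomosis (-2.15 ± 0.30, adjusted p = 0.00176) and downstream at day 5 (-1.09 ± 0.30, adjusted p = 0.0389) and day 14 (-1.42 ± 0.30, adjusted p = 0.0446). APOA1, an apolipoprotein of the liver list, was 1.62 ± 0.26 higher at each graft site at day 14 (adjusted p = 0.00336 at the anastomosis and 0.0153 downstream), at levels of 12.73 to 15.68 over the 24 samples, while of the fibrinogen chains of that list FGA and FGG were well above background in 0 of 24 samples and FGB in 23.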
